A study of Homo sapiens with 4 samples.

Results

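UNCX and HLX are homeobox genes that lay beside some of the widest H3K27me3 peaks called in HaCaT cells. H3K27me3 is histone H3 trimethylated on lysine 27. The members were all called peaks that overlapped by at least 1 bp either of 2 windows of the hg19 genome build, chr7:1240000-1320000 for UNCX and chr1:221030000-221090000 for HLX. By this rule 34 of the 22045 peaks of both lists were members. Of the 16 members in the AKBA list, 13 were at UNCX and 3 at HLX, and of the 18 in the DMSO list, 12 were at UNCX and 6 at HLX. The loci were chosen by the width of the peaks called there in these same lists, so the widths, numbers and positions given here are a description and carry no test. Of the members, 4 of 16 in the AKBA list were at least 5 kb wide, against 1.84% of all AKBA peaks, and 2 of 18 in the DMSO list, against 0.787% of all DMSO peaks. Those counts follow from the choice and nothing is read from them.

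The study set HaCaT cells in medium with AKBA for 12 hours against HaCaT cells in medium with DMSO for 12 hours. HaCaT cells are human epidermal keratinocytes that grow as an immortalised line. Both groups share that genotype, and the identity of the line cannot be checked in peak lists. AKBA is an abbreviation in common use for a boswellic acid of frankincense resin, which the labels do not spell out, and the sources used here give no dose. Each group had 1 H3K27me3 library with its own peak list and 1 input DNA library, which was not analysed here, and the antibody was anti-H3K27me3. With 1 library a group no difference below has a replicate check, and how deeply either library was sequenced is unknown.

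Homeobox genes encode transcription factors that bind DNA through a homeodomain and give embryonic tissues their regional identity. UNCX (Unc-x homeobox) is known in mice for the caudal part of each somite, where it is needed for parts of the vertebrae and ribs. HLX (H2.0-like homeobox) is known in mice for the mesenchyme of the gut and liver, which do not grow normally without it, and for T helper cells. The H3K27me3 mark is written by Polycomb repressive complex PRC2, often over CpG-rich promoters of developmental genes, and can spread from there into broad blocks over genes that a cell type keeps silent.

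Both genes are on the plus strand of the RefSeq table. UNCX was placed at about chr7:1272654-1276613, a span of 3960 bp, and HLX at about chr1:221052743-221058400, a span of 5658 bp. Exons and introns were not used, because the gene table at hand was of GRCh38.p14 and not of hg19. By order in that table the nearest protein-coding genes were ZFAND2A and MICALL2 on the left and right of UNCX, and MTARC1 and DUSP10 on the left and right of HLX. The lncRNA gene HLX-AS1 overlapped HLX in that table.

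The 250 bases before both gene starts are shown because, by the approximate hg19 gene starts, peaks of both lists ran across this stretch. They are RefSeq sequence of GRCh38.p14, plus strand, from chr7:1232622-1232871 for UNCX and chr1:220879193-220879442 for HLX. Peaks were not carried over to that build. The letters run 5′ to 3′, and capitals mark CG dinucleotides.
UNCX: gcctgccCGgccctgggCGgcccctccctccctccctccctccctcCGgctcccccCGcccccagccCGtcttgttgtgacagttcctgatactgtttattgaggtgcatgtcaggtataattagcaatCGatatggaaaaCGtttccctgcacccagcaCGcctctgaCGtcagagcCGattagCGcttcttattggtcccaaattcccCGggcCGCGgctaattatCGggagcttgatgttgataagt
HLX: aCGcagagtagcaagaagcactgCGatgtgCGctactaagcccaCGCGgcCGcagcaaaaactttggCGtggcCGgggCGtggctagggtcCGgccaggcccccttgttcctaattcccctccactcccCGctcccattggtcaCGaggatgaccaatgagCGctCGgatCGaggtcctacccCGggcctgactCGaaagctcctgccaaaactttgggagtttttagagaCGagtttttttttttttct

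The UNCX stretch held 15 CG dinucleotides and the HLX stretch 18, against a median of 11 over the same stretch of 35114 RefSeq promoters. Of all promoters, 42.9% held at least as many as UNCX and 36.8% at least as many as HLX, so neither stretch stood at the extreme. The G and C content was 58.0% at UNCX and 57.2% at HLX, beside a median of 58.0%. The ratio of observed to expected CG was 0.743 at UNCX and 0.884 at HLX, against a median of 0.558.

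The letters TAAT, the core that many homeodomains bind, were searched on both strands. They were found at 5 positions in the UNCX stretch and at 1 position in the HLX stretch. At least 1 TAAT was present in 47.4% of all promoters, and 6.16% held as many as UNCX. Of the longer TAATTA, which reads the same on both strands and contains TAAT on each, UNCX held 2, HLX held 0, and 4.35% of promoters held any. CCAAT, the core of a common promoter element, was found 1 time at UNCX and 2 times at HLX, against 32.0% of promoters with any. TATAAA was found in neither, and 10.7% of promoters held it. These counts describe the letters in the window and do not locate bound factors.

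At UNCX the called mark ran in blocks over the gene and to both sides of it, with the greater part downstream. Within the window, and apart from 1 narrow AKBA peak at its edge, AKBA peaks reached from 23.2 kb before the gene start to 38.0 kb past it. DMSO peaks reached from 23.1 kb before to 37.2 kb past. AKBA peaks covered 38.4 kb of the 80 kb window (48.0%) and DMSO peaks 29.5 kb (36.9%), a ratio of 1.30. Of the windows of 80 kb across the genome that held a peak of either list, 78.4% had more AKBA than DMSO bases. The direction at UNCX was that of most such windows. That share was 66.6% when both lists kept the same number of highest-scoring peaks. Over the whole lists the AKBA peaks covered 1.94 times the bases of the DMSO peaks.

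By the approximate gene end used here, the widest block of the UNCX locus began just past the gene and lay wholly downstream. With the gene moved 200 bp to the right, the AKBA block began inside the gene and the DMSO block still past it. In the AKBA list it was the peak chr7:1276783-1291784, which measured 15002 bp, had a score of 7.73 and began 170 bp past the gene end. In the DMSO list it was chr7:1276999-1289570, of 12572 bp and score 5.28, which began 386 bp past the gene end. The peak was second in width in both lists. The block's near edge differed by 216 bp between the lists and its far edge by 2214 bp, in both cases with AKBA further out. Every base of the DMSO block lay in the AKBA block. The score was set by the authors for each peak, and its scale is not stated. It serves here to rank peaks within a list, and 1 alternative setting applied a common minimum to both lists.

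Over the UNCX gene start both lists had a peak, and it was longer on the upstream side in the DMSO list. The AKBA peak was chr7:1270059-1275618, of 5560 bp and score 8.30, and reached from 2595 bp before the gene start to 2964 bp after it. That score ranked 108 among the 13155 AKBA peaks and was the highest of the 13 AKBA peaks at UNCX. The DMSO peak was chr7:1269477-1273761, of 4285 bp and score 5.36, and reached from 3177 bp before the gene start to 1107 bp after it. It ranked 343 by score among the 8890 DMSO peaks. A second DMSO peak lay within the gene, at chr7:1274433-1275977, with a width of 1545 bp and a score of 5.86. It ranked 201 and was the highest-scoring of the 12 DMSO peaks at UNCX. The AKBA peak spanned the break of 671 bp between these DMSO peaks, a break narrower than any gap between AKBA peaks, of which the smallest was 857 bp.

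The UNCX gene itself was covered to 74.9% by AKBA peaks and to 67.0% by DMSO peaks. The difference was 312 bp, and it changed sign, to -359 bp (AKBA minus DMSO), when peaks of a list were joined across gaps of up to 1 kb. Neither list called the last part of the gene, up to its approximate end. With the gene moved 200 bp to the right, its very last bases fell in the wide AKBA block. A break of 1164 bp with AKBA and of 1021 bp with DMSO separated the gene peaks from the wide downstream block. The stretch called in neither list, chr7:1275978-1276782, measured 805 bp and ran from 635 bp before the gene end to 169 bp past it.

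**Figure D1:**
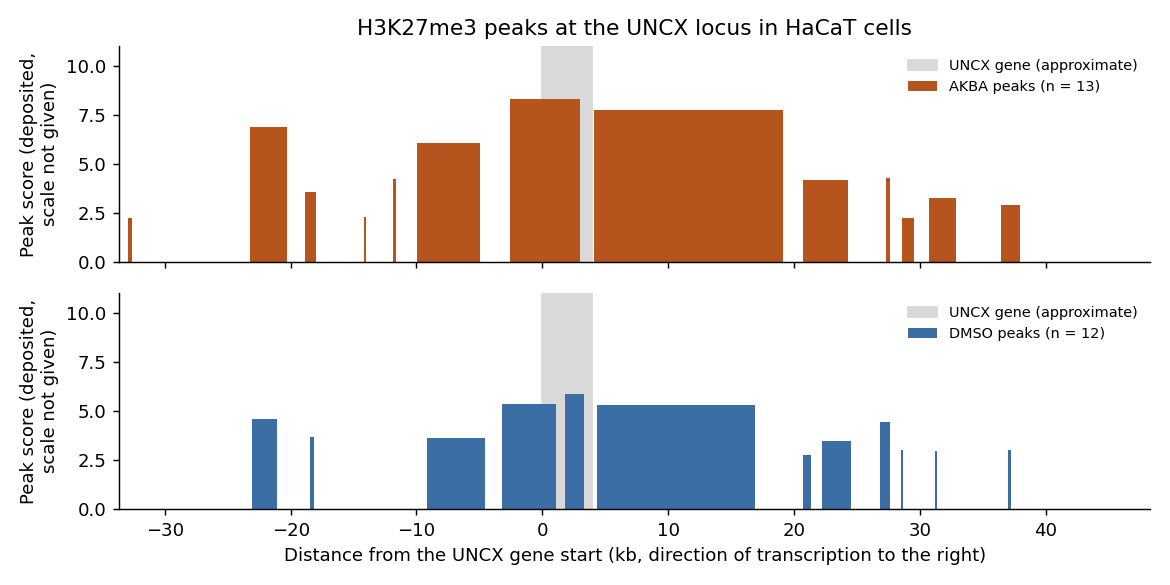
Called H3K27me3 peaks at UNCX, AKBA above and DMSO below, by distance from the gene start in kb. Bar width is peak width, bar height is the deposited score on a scale not given, and grey is the approximate gene. The widest bar of each panel, 15002 bp with AKBA and 12572 bp with DMSO, starts just past the approximate gene end.

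Upstream of UNCX the blocks were interrupted, and the next wide one lay about 5 to 10 kb before the gene start. The AKBA peak there was chr7:1262671-1267673, with 5003 bp and a score of 6.07. Its DMSO counterpart was chr7:1263528-1268098, with 4571 bp and a score of 3.63, shifted towards the gene at both edges. The space from it to the gene-start peak was 2385 bp with AKBA and 1378 bp with DMSO. In the 5 kb just before the gene start, AKBA peaks covered 52.3% and DMSO peaks 72.4%, whereas in the 5 kb before that they covered 99.7% and 82.5%.

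Further out on the upstream side, a peak marked the left border of the locus at nearly the same place in both lists. It was chr7:1249430-1252322 in the AKBA list, with 2893 bp and a score of 6.88, and chr7:1249545-1251580 in the DMSO list, with 2036 bp and a score of 4.60. The left edges differed by 115 bp and lay 23.2 kb and 23.1 kb before the gene start. Between this border and the wide upstream block, a peak of 880 bp in the AKBA list overlapped one of 324 bp in the DMSO list.

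Of the 13 AKBA peaks at UNCX, 10 overlapped a DMSO peak, against 32.2% of all AKBA peaks, and nothing is read from that count. The 3 without a DMSO overlap were all upstream and narrow. Of these, 2 measured 214 bp, the narrowest width in the AKBA list. The third, of 333 bp, lay at the edge of the window, with 69 bp inside it. In both lists the nearest peak outside the window on the right began 4.29 kb (AKBA) and 4.46 kb (DMSO) past it.

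From 15 to 40 kb past the UNCX gene start AKBA peaks covered more than DMSO peaks in each 5 kb step. From 5 to 15 kb past the UNCX gene start every base was called in both lists. From 15 to 20 kb AKBA peaks covered 82.6% and DMSO peaks 38.3%, and from 20 to 25 kb 71.0% and 58.4%. From 30 to 35 kb the values were 43.0% with AKBA and 3.20% with DMSO, and from 35 to 40 kb they were 31.2% and 4.66%. From 40 to 50 kb neither list had a peak. The next peaks, of 1747 bp with AKBA and 160 bp with DMSO, lay outside the window.

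The far downstream difference lay in peak width and not in the presence of peaks. In the last 3 places called within the window, AKBA peaks measured 972, 2148 and 1559 bp and the DMSO peaks they overlapped 160, 160 and 233 bp. A width of 160 bp is the narrowest in the DMSO list. Nearer to the gene, at chr7:1299940-1300273, the AKBA peak of 334 bp was narrower than the DMSO peak of 737 bp it overlapped.

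HLX had a shorter domain, with its greatest part downstream of the gene start. AKBA peaks covered 18.6 kb of the 60 kb window (31.1%) and DMSO peaks 12.3 kb (20.6%), a ratio of 1.51. More AKBA than DMSO bases were found in 77.5% of the windows of 60 kb with a peak of either list. AKBA peaks reached from 2715 bp before the gene start to 17.8 kb past it, and DMSO peaks from 3931 bp before to 17.1 kb past it. Measured from the outermost ends of the peaks of both lists, the next AKBA peak was 126.6 kb away on the left and 23.2 kb on the right, and the next DMSO peak 126.5 kb and 24.7 kb.

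The HLX gene start lay in a peak of both lists. The AKBA peak was chr1:221051734-221054676, with a width of 2943 bp and a score of 8.32, from 1009 bp before the gene start to 1933 bp after it. Its score ranked 105 among the AKBA peaks, close to rank 108 of the peak over the UNCX start. The DMSO peak was chr1:221050593-221053848, with 3256 bp and a score of 4.35, from 2150 bp before the gene start to 1105 bp after it. It ranked 1130 by score among the DMSO peaks. In each list the peak over the gene start had the highest score at HLX, while the widest peak was another. A smaller AKBA peak of 792 bp and score 3.50 also overlapped the upstream end of this DMSO peak.

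By the share of bases called, the lists differed more over the HLX gene than in the stretches upstream and downstream of it. The AKBA peaks covered 83.5% of the gene and the DMSO peaks 30.8%, a difference of 2978 bp. With only peaks of at least 1 kb, the DMSO share of the gene was 19.5%. The AKBA peak chr1:221055612-221070509, of 14898 bp and score 5.16, began inside the gene, 2869 bp past its start, and ended 12.1 kb past its end. It ranked 3 by width in the AKBA list. In the DMSO list the gene was free of peaks from 1106 to 4891 bp past its start, a gap of 3786 bp of which AKBA peaks filled 75.3%. Of the 935 bp of the gene that no AKBA peak covered, chr1:221054677-221055611, no base lay in a DMSO peak.

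Under this single AKBA peak the DMSO list had 4 peaks. The one in the gene, chr1:221057635-221058273, measured 639 bp with a score of 3.28. The next, chr1:221058962-221059977, measured 1016 bp with a score of 2.64, and the next, chr1:221060828-221061348, 521 bp with a score of 3.35. The widest, chr1:221063136-221069866, measured 6731 bp and ranked 27 by width and 1666 by score in the DMSO list. All 4 lay entirely inside the AKBA peak, which extended 2023 bp further on the gene side and 643 bp further on the far side.

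The 3 breaks between these DMSO peaks measured 688, 850 and 1787 bp. The first and second were narrower than 857 bp, the smallest AKBA gap, and the third was wider. With DMSO peaks joined across all gaps narrower than that, the AKBA peak overlapped 2 DMSO peaks. Among all AKBA peaks, 0.167% overlapped 4 or more DMSO peaks, and among the 242 AKBA peaks of at least 5 kb 8.26% did. The exact 95% binomial interval of the last share is 5.12 to 12.5%, for counting error only. At UNCX the most DMSO peaks under 1 AKBA peak was 2, which 4.43% of AKBA peaks reached. It was 1 with DMSO peaks joined across gaps narrower than 857 bp. A wider peak can overlap more DMSO peaks, and the loci were chosen for wide peaks. The shares are not matched for width, so nothing is read from these counts.

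**Figure D2:**
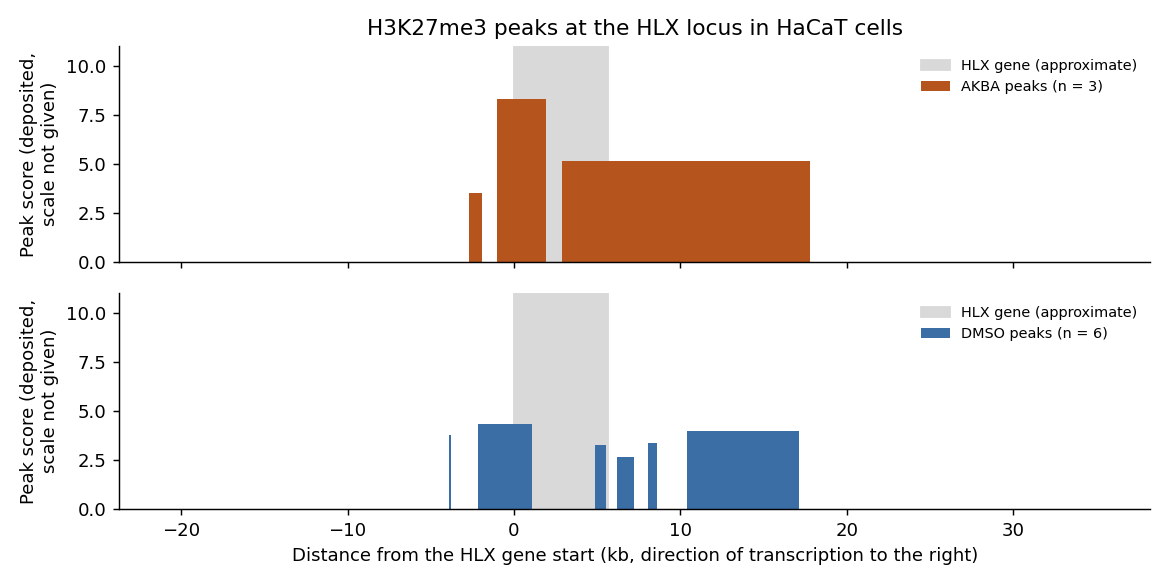
Called H3K27me3 peaks at HLX, AKBA above and DMSO below, by distance from the gene start in kb. Bar width is peak width, bar height is the deposited score on a scale not given, and grey is the approximate gene. The 14898 bp AKBA peak stands over 4 separate DMSO peaks.

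Upstream of HLX the order of the lists was the other way round. AKBA peaks covered 1801 bp there and DMSO peaks 2326 bp, a difference of -525 bp (AKBA minus DMSO). The difference was -1141 bp with only peaks of at least 1 kb. It was 389 bp when peaks of a list were joined across gaps of up to 1 kb, because the AKBA gap of 914 bp before the gene-start peak then closed. The single member of the DMSO list without an AKBA overlap, a peak of 176 bp and score 3.78, was also here, with its left edge 3931 bp before the gene start.

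At both loci the segment downstream of the gene held more called bases than the gene or the segment upstream of it. At UNCX the downstream segment held 61.4% of the AKBA and 56.8% of the DMSO bases of the window, and at HLX it held 65.0% and 67.0%. The upstream segment held 30.9% and 34.2% at UNCX, against 9.67% and 18.9% at HLX. The windows extend unequally to both sides, by 32.7 and 43.4 kb at UNCX and by 22.7 and 31.6 kb at HLX, so these shares depend on where the windows end. The gene itself held 7.72% of the AKBA and 8.98% of the DMSO bases at UNCX, and 25.3% and 14.1% at HLX. The ratio of AKBA to DMSO bases in the gene was 1.12 at UNCX and 2.71 at HLX, and in the downstream segment it was 1.40 and 1.46. Whether the loci differed in these ratios was not tested.

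**Figure D3:**
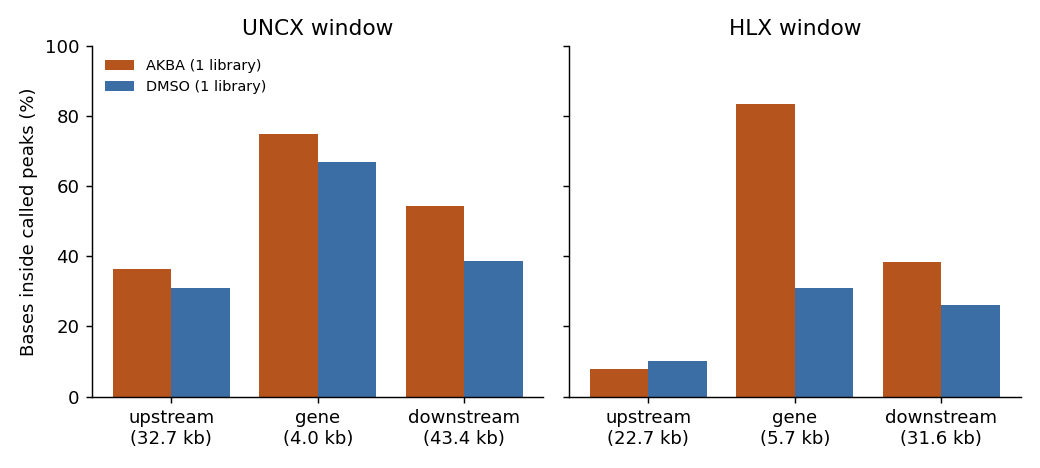
Percent of bases inside called peaks, AKBA left of DMSO, for the stretch upstream of the gene, the gene and the stretch downstream of it in each window. Each bar is 1 library, without replicates. The widest separation is over the HLX gene, at 83.5% with AKBA and 30.8% with DMSO.

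Most of the sequence called at these loci with DMSO was also called with AKBA. Bases in both lists came to 27.5 kb at UNCX, which was 71.6% of the AKBA and 93.1% of the DMSO bases there. At HLX they came to 11.2 kb, or 60.4% of the AKBA and 91.2% of the DMSO bases. In AKBA peaks alone lay 10.9 kb at UNCX and 7.38 kb at HLX, and in DMSO peaks alone 2.05 and 1.09 kb. By peaks, 13 of the 16 AKBA members overlapped a DMSO peak, against 32.2% of all AKBA peaks, and 17 of the 18 DMSO members overlapped an AKBA peak, against 54.5% of all DMSO peaks. Since the rule used wide peaks of both lists, nothing is read from these counts.

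The overlapping peaks formed 12 groups, 10 at UNCX and 2 at HLX, with 24 outer edges. The AKBA edge lay further out in 17 of the 24, and in 65.1% of the 8286 outer edges of all such groups in the genome. At UNCX it did so in 13 of 20 and at HLX in 4 of 4. Peaks without an overlap are in no group. Left out were thus the 3 such AKBA peaks at UNCX and the DMSO peak of 176 bp at HLX. That DMSO peak reached further upstream of HLX than any AKBA peak of the window. The exceptions at UNCX included both edges of the group over the gene start, where DMSO peaks began 582 bp earlier and ended 359 bp later. They also included both edges of the group from 20.7 to 24.5 kb past the gene start, by 17 and 203 bp.

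**Figure D4:**
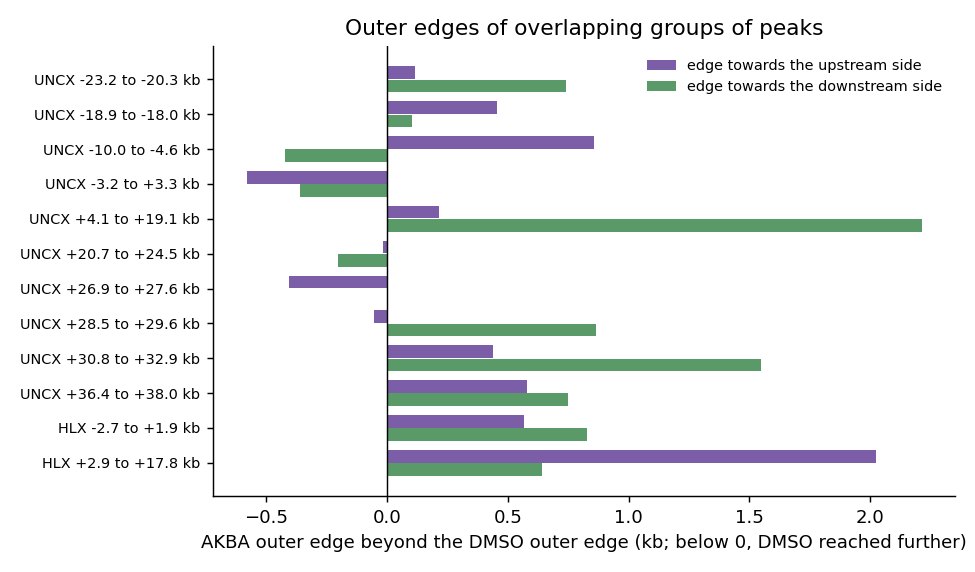
Distance in kb by which the AKBA outer edge lay beyond the DMSO outer edge, for the upstream and downstream edge of each of the 12 groups of overlapping peaks. Labels give each group's place from the gene start. Values below 0, as at both edges over the UNCX gene start, mean that DMSO reached further.

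To place the loci in the genome, peaks of both lists were joined across gaps of up to 5 kb. Of the joined domains, 84 were at least 20 kb long with peaks of both lists, and UNCX and HLX each lay in one. The UNCX domain, 61.2 kb long, was the longest of the 84, and the HLX domain, 21.7 kb, was rank 68 by length. HLX had the highest AKBA coverage of the 84, 85.9%, and rank 3 by DMSO coverage, 56.9%. UNCX had 62.6% AKBA and 48.3% DMSO coverage, ranks 23 and 12. The medians of all 84 were 53.1% and 31.6%. The loci were chosen for wide peaks, and domain length and coverage are built from those peaks. Nothing is therefore read from these ranks or from the ranks of the ratio below.

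In 82 of the 84 domains AKBA peaks covered more bases than DMSO peaks. The ratio had a median of 1.62 and quartiles of 1.43 and 2.02. HLX with 1.51 lay within the quartiles at rank 51, and UNCX with 1.30 lay below them at rank 70. The domains nearest to UNCX in both coverages were chr16:86511591-86551256, with 62.7% AKBA and 44.7% DMSO coverage, chr17:46794963-46817295, with 66.6% and 52.0%, and chr2:219845497-219869422, with 65.8% and 43.8%. HLX lay further from its nearest domain than UNCX did from its own, and such distances were not computed for the other domains. Its nearest domain, chr7:155238369-155264651, was covered to 81.3% by AKBA and 46.1% by DMSO peaks, and was 11.7 percentage points away, against 3.57 for the nearest to UNCX. These likenesses are over 2 libraries only and were measured in coverage alone.

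**Figure D5:**
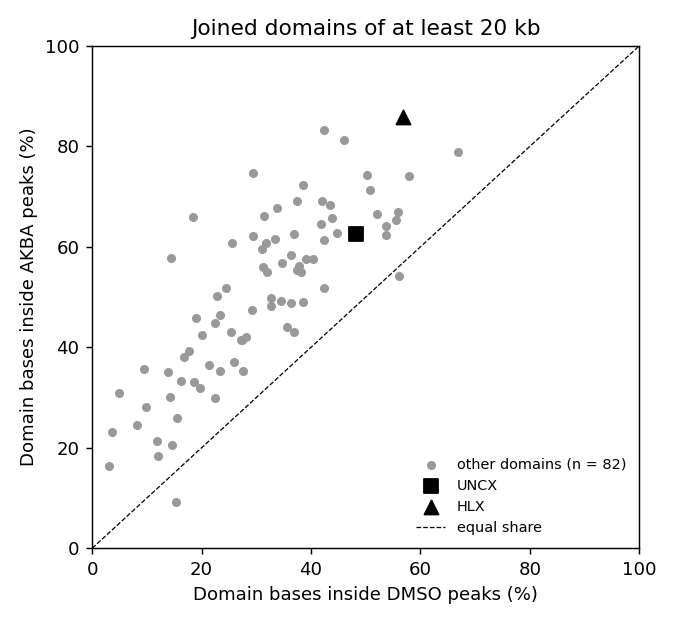
Percent of each joined domain inside AKBA peaks (vertical) and DMSO peaks (horizontal), for the 84 domains of at least 20 kb. The dashed line marks equal shares. HLX is at the top with 85.9% AKBA coverage, and UNCX with 62.6% lies nearer to the line.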

How the data were processed

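Peaks of H3K27me3 ChIP-seq came from 2 HaCaT libraries, AKBA and DMSO. The submitters' processing notes name BWA, STAR and MACS2, without versions, and the build hg19. The peak threshold, how the input was used and what the score means are not stated there. Scores, as deposited by the authors, lie between 2.03 and 14.3 with AKBA and between 2.00 and 18.7 with DMSO. The other deposited columns are chromosome, start, end and peak name. Scores were ranked within lists. The alternative with a score of at least 3 in both lists treats their scales as the same, which is not known. The narrowest width and smallest gap were 214 and 857 bp with AKBA and 160 and 641 bp with DMSO.

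Starts were made 1-based. Bases were counted within the windows with Python 3.11.15, numpy 2.4.6 and pandas 2.3.3, exact Clopper-Pearson intervals with scipy 1.17.1 and figures with matplotlib 3.10.9. Overlaps of 1 bp or more were checked against bedtools 2.31.1, and the interval code was tested on simulated data. Gene positions are approximate hg19 positions and promoter sequence is from RefSeq, GRCh38.p14. With 1 library per condition no test was run. The members were chosen with earlier results of these data known. Peaks were named by rule: those over or next to a gene, and those of at least 5 kb. Others named in the text were chosen after their values were seen. Alternatives were a score of at least 3, the same number of top-scoring peaks, peaks of at least 1 kb, joining of peaks, other windows and other overlaps.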

Additional observations from a re-analysis of the deposited data

How the results depend on the processing

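More AKBA than DMSO bases at UNCX and at HLX held under all 6 alternatives run on them, with ratios of 1.23 to 1.35 and 1.48 to 1.65. The differences in the UNCX gene and upstream of HLX reversed, to -359 and 389 bp, with peaks joined across gaps of up to 1 kb. That setting also merged the 3 AKBA peaks at HLX into 1, which overlapped 3 DMSO peaks after joining. Keeping peaks of at least 1 kb left 5 AKBA and 6 DMSO peaks with an overlap at UNCX and 3 DMSO peaks with one at HLX. These were all the DMSO peaks of that width at both loci. At UNCX the AKBA peaks of 2148 and 1559 bp had no overlap then, since their DMSO partners of 160 and 233 bp were dropped. That setting left 19.5% of the HLX gene in DMSO peaks. A reciprocal overlap of 50% left 5 of 13 AKBA and 5 of 12 DMSO peaks at UNCX, and 1 of 3 and 1 of 6 at HLX. The share of all peaks under that rule was not computed, so nothing is read from these counts. Joining DMSO peaks across gaps narrower than 857 bp left at most 1 DMSO peak under an AKBA peak at UNCX and 2 at HLX. Windows with more AKBA bases were 76.2% (80 kb) and 76.0% (60 kb) with a score of at least 3, which assumes 1 scale in both lists, and 66.6% and 65.7% with equal numbers of top-scoring peaks. Gene positions moved by 200 bp either way, a choice made after seeing the data, gave 70.6 to 79.9% (AKBA) and 61.9 to 72.0% (DMSO) of UNCX, and 83.5% and 27.3 to 33.1% of HLX. No paired analysis was possible because each condition has 1 library. Depth is unknown, and a stretch in no peak may carry mark that fell short of the threshold.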
